A study of Rattus norvegicus with 38 samples.

Results

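Angiotensinogen, the product of the gene Agt, was followed through all 38 libraries of a rat brain series as 1 of the 32883 Ensembl gene IDs (IDs below) in its count table. The member is the row ENSRNOG00000018445. The rule that chose it pairs this ID with the symbol Agt. The table itself carries no symbols, so the pairing could not be checked against it.

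Angiotensinogen is the sole known precursor of the angiotensin peptides. Renin cuts its amino-terminal end to angiotensin I, which angiotensin-converting enzyme trims to angiotensin II, the peptide that raises blood pressure through the AT1 receptor. Angiotensinogen belongs by sequence to the serpins, a family made up mostly of protease inhibitors. The liver supplies most of the protein in plasma, and in the brain astrocytes are its best known source.

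Blood vessels and clusters of neurons were cut by laser microdissection from the cortex of 2 kinds of rat, Wistar and SHRSP, and their RNA was sequenced from the 3' end. SHRSP is the stroke-prone form of the spontaneously hypertensive rat. Rats of the early stage were aged 24 to 25 weeks and those of the late stage 32 to 34 weeks. The stage is thus an age class that the Wistar animals carry too, and no group was labelled with a treatment. Of the Wistar animals 5 were early and 4 late, and of the SHRSP animals 5 were early and 5 late. Each of these 19 animals gave 1 vessel and 1 neuron library. The sources used here do not give the sex of the animals or how vessels and neurons were recognised for cutting. Without symbols, no cell type marker could be looked up, so the purity of either material was not checked.

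Library totals ran from 1198386 to 4963429 counts. The animals fell into 2 sets by how much of their neuron library 1 ID, the most abundant, took up. Its share was 20.4% or more in 11 animals, called the high-share set here, and at most 10.7% in 8, the low-share set. The high-share set holds all 9 late animals and, of the early ones, Wistar animal 349 and SHRSP animal 383. Vessel libraries of the low-share set held 4104 to 8752 IDs with at least 1 count, against 9875 to 11974 in the high-share set. Stage and set can therefore hardly be told apart, and values are given within the sets where they bear on a comparison.

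Agt was well measured in most libraries. In neurons it received 81 to 477 counts and in vessels 0 to 1507. Levels below are CPM, the counts scaled to a common library total over all 38 libraries. A 3' count does not grow with transcript length. The median level was 102 CPM over the 19 vessel libraries and 72.5 CPM over the 19 neuron libraries. Agt had more counts than 67.6% to 91.4% of the IDs detected in each neuron library. In vessels this was 75.2% to 96.3%, leaving aside the early SHRSP animals 377, 380 and 386, where Agt was almost missing.

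Ordered by their medians, the 8 groups ran from early Wistar vessels at 130 CPM through early SHRSP neurons (112 CPM), late SHRSP vessels (92.1 CPM) and late Wistar vessels (86.1 CPM). Late SHRSP neurons (70.7 CPM), early Wistar neurons (69.5 CPM), late Wistar neurons (43.2 CPM) and early SHRSP vessels (4.6 CPM) followed. The ranges of every pair of neighbours in this order overlapped. By the mean, early SHRSP vessels moved from the last place to the first.

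**Figure D1:**
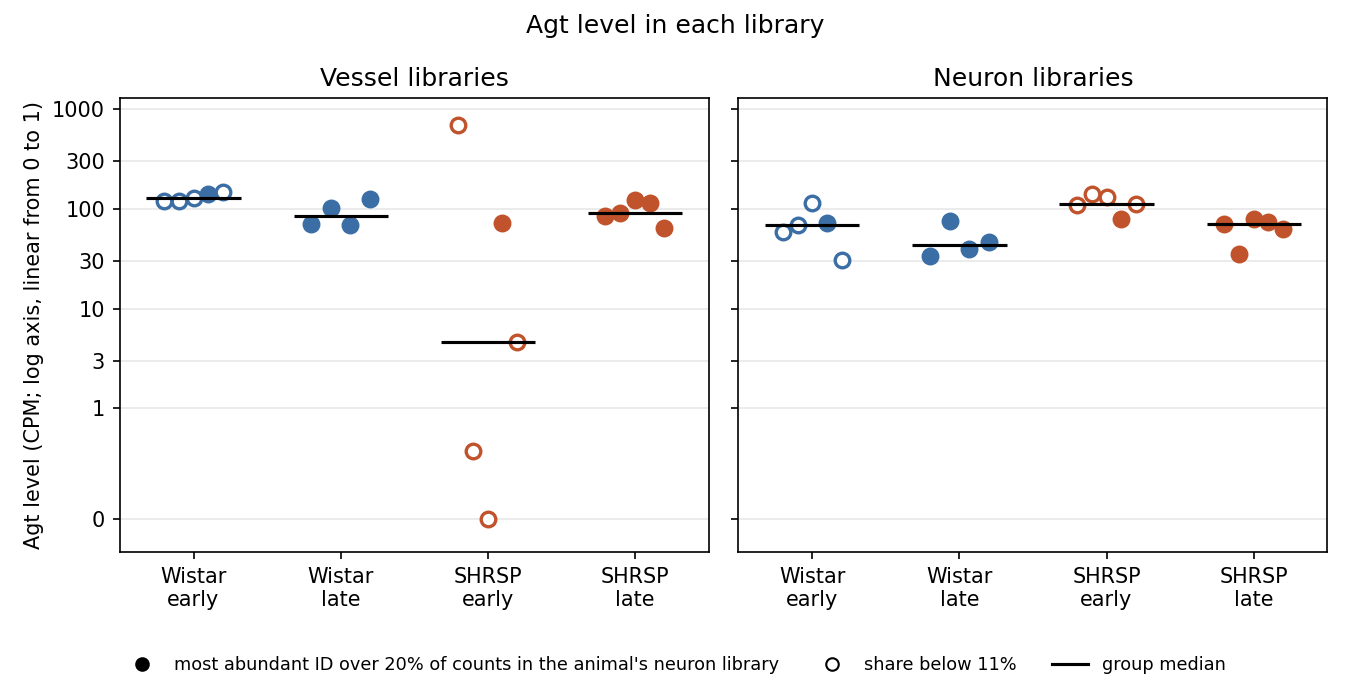
Agt level of each library in CPM, on a log axis that is linear from 0 to 1, with vessels left and neurons right. Points are animals, filled where the most abundant ID takes over 20% of the counts of the animal's neuron library and open otherwise, and bars are group medians. Early SHRSP vessels span 0 to 691 CPM while the 5 early Wistar vessel libraries lie between 120 and 147 CPM.

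Vessels of early SHRSP rats showed the widest spread of Agt among the 8 groups. Animal 374 had 691 CPM from 1507 counts. Animal 383 had 72.4 CPM from 261 counts, and animal 386 had 4.6 CPM from 14 counts. Animal 377 had a single count, or 0.618 CPM (exact Poisson interval 0.0156 to 3.44 CPM). Animal 380 had no count in a library of 2707707, for which the one-sided limit of 3 counts is 1.01 CPM. The interval and the limit cover counting error only, since reads without molecular identifiers are not independent molecules. One library was thus far above, 1 within and 3 far below the vessel levels of the other 3 groups, which ran from 64.8 to 147 CPM.

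In early Wistar vessels, by contrast, the 5 animals lay close together. They had 120 CPM (animal 340), 122 CPM (343), 130 CPM (346), 141 CPM (349) and 147 CPM (368), a mean of 132 ± 11.8 CPM (SD, n = 5). Their coefficient of variation was 0.0896, and only 2 of 10768 IDs had a smaller one in these libraries, where the median ID had 1.28. Scaled by library total alone, without TMM factors, the 5 animals ran from 103 CPM (349) to 158 CPM (368). In early SHRSP vessels Agt had a coefficient of 1.96 against a median of 1.65, and 62.2% of IDs varied less. This measure also grows as counts fall, so rarely counted IDs raise the median.

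The strain difference in early vessels did not pass the threshold, an adjusted p under 0.05 over all IDs tested. The fitted log2 fold of SHRSP over Wistar was 0.22 (SE 0.92, adjusted p = 0.952), while 0.254% of the 11011 IDs tested, or 28, were called. Without animal 383, 1137 of 10847 IDs were called, and Agt was at 0.32 (adjusted p = 0.885). This fold follows the mean, 154 ± 302 CPM in SHRSP (n = 5), which animal 374 sets: without it the mean was 19.4 CPM and the log2 fold -2.75 (SE 1.17, adjusted p = 0.251). On the scale of log2(CPM + 1) the group means differed by -3.29 (exact permutation test, two-sided, p = 0.127, adjusted p = 0.202 over 12 tests within materials). Mean and median therefore pointed in opposite directions, with SHRSP higher by the first and lower by the second.

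Late vessels gave a narrow picture in both strains. The SHRSP animals had 86.0 CPM (378), 92.1 CPM (379), 125 CPM (381), 114 CPM (382) and 64.8 CPM (384). The Wistar animals had 70.1 CPM (350), 102 CPM (351), 69.6 CPM (353) and 128 CPM (354). The groups overlapped through most of their range, at 96.2 ± 23.6 CPM (n = 5) and 92.3 ± 28.0 CPM (n = 4), with a log2 fold of 0.06 (SE 0.98, adjusted p = 1). Its standard error comes from a spread shared with the early groups. With only the 2 late groups fitted it was 0.33 around a log2 fold of 0.06.

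In this late comparison 0% of IDs were called by edgeR, where 102 had an unadjusted p under 0.05, while DESeq2 called 11 and limma voom 0. Averaged over both stages the vessel strain difference of Agt was 0.14 (SE 0.67, adjusted p = 1), and 0.0817% of IDs were called. Its change from the early to the late stage was -0.16 (SE 1.34, adjusted p = 1) against 0.00908% called. Both values turned sign without animal 374, to -1.35 and 2.82, and in limma voom, to -1.95 and 4.10. On the scale of log2(CPM + 1) they were -1.61 and 3.36.

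Neurons carried Agt in all 19 libraries, and SHRSP animals tended to the upper part of the range. Early SHRSP neurons had 109 CPM (animal 374), 142 CPM (377), 131 CPM (380), 79.2 CPM (383) and 112 CPM (386). Early Wistar neurons had 59.4 CPM (340), 69.5 CPM (343), 116 CPM (346), 72.5 CPM (349) and 31.1 CPM (368). The groups overlapped through Wistar animal 346, which lay above 3 of the 5 SHRSP animals. The 3 SHRSP animals whose vessel libraries nearly lacked Agt had the 3 highest neuron levels of their group.

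The means were 115 ± 24.0 CPM in early SHRSP and 69.6 ± 30.5 CPM in early Wistar neurons (SD, n = 5 each). The fitted log2 fold was 0.69 (SE 0.27, unadjusted p = 0.0176 in edgeR), and 93.0% of the 10833 IDs tested had a lower fold. It did not pass over all IDs (adjusted p = 0.435), and 0.222% of IDs were called. The exact permutation test gave p = 0.0317 (two-sided, adjusted p = 0.127 over the same 12 tests; 0.00794 is the smallest p that 5 against 5 allows). Within the low-share set the means were 123 ± 15.6 CPM and 68.9 ± 35.2 CPM (n = 4 each). The 1 high-share animal of each strain had 79.2 CPM in SHRSP and 72.5 CPM in Wistar.

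In late neurons the same direction was smaller. SHRSP animals had 70.7 CPM (378), 35.8 CPM (379), 80.2 CPM (381), 74.4 CPM (382) and 62.6 CPM (384). Wistar animals had 33.6 CPM (350), 76.6 CPM (351), 40.1 CPM (353) and 46.3 CPM (354). Of the 5 SHRSP values, 4 lay above 3 of the 4 Wistar values, and 1 animal of each strain crossed over. The log2 fold was 0.38 (SE 0.29, adjusted p = 1) and 0.0369% of IDs were called.

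Over the mean of both stages, Agt in neurons was 1.45-fold higher in SHRSP by the fit (log2 fold 0.54, SE 0.20, unadjusted p = 0.0128 in edgeR). It ranked 351 of 10833 IDs by p and did not pass (adjusted p = 0.395), while 0.674% of IDs were called. Permuting strain within stage gave an exact two-sided p = 0.0168 (adjusted p = 0.101 over the 12 tests). The fold was positive under all 26 alternative analyses, from 0.23 to 0.67, and passed in none of them. The strain difference did not detectably change with stage (log2 -0.31, SE 0.40, adjusted p = 1). There 0% of IDs were called by edgeR, with 254 at an unadjusted p under 0.05, and DESeq2 and limma voom also called 0.

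Between the stages, Agt in SHRSP neurons was lower in late animals by the fit, without passing the threshold. Late SHRSP neurons averaged 64.7 ± 17.4 CPM against 115 ± 24.0 CPM in early ones (n = 5 each), and the groups overlapped only because the early animal 383 (79.2 CPM) lay below the late animal 381 (80.2 CPM). The log2 fold was -0.76 (SE 0.27, unadjusted p = 0.0102, adjusted p = 0.0774 in edgeR), with 8.85% of IDs called. It passed with only the 2 groups fitted (adjusted p = 0.0142), where 2033 of 9893 IDs were called. It also passed without Wistar animal 368 (adjusted p = 0.0412) or SHRSP animal 383 (0.0458). The exact permutation test gave p = 0.0159 (two-sided, adjusted p = 0.101 over 12 tests).

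The stage groups differ in library set as well as in age, and the high-share set holds 1 early SHRSP animal, so the comparison inside that set has no spread on its early side. This animal, 383, had 79.2 CPM, within the 35.8 to 80.2 CPM of the 5 late ones. Once the fit held a term for the set, the log2 fold was -0.52 (SE 0.38, adjusted p = 0.976). The low-share set holds early animals only.

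Wistar neurons showed the same sign with more overlap, 49.1 ± 19 CPM late (n = 4) against 69.6 ± 30.5 CPM early (n = 5). The log2 fold was -0.45 (SE 0.29, adjusted p = 0.331), where 9.31% of IDs were called. With a term for the library set it was -0.23 (SE 0.38, adjusted p = 0.973), and 0 of 10833 IDs were called. The early high-share animal 349 had 72.5 CPM, inside the late range of 33.6 to 76.6 CPM.

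In Wistar vessels, late animals had a lower mean than early ones, and the late animal 354 (128 CPM) was the 1 that lay within the early range of 120 to 147 CPM. The log2 fold was -0.52 (SE 0.99, adjusted p = 1) with 0.00908% of IDs called. With a term for the library set it was -0.15 (SE 1.42, adjusted p = 0.914). All late Wistar animals are high-share, and of the early ones only 349 (141 CPM). The exact permutation test gave p = 0.0476 (two-sided, adjusted p = 0.143 over 12 tests; 0.0159 is the smallest p that 4 against 5 allows). In SHRSP vessels the log2 fold of late over early was -0.67 (SE 0.92, adjusted p = 0.834; 0.00908% of IDs called, which is 1 ID, against 1310 without animal 383). It was 2.30 (SE 1.15, adjusted p = 0.346) without the early animal 374, so its direction rested on that library.

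Vessel and neuron libraries of the same animal allow Agt to be compared within each rat. Agt was higher in the vessel library of 15 of the 19 animals. In early Wistar, late Wistar and late SHRSP rats this held for all 14 animals, with vessel-to-neuron ratios from 1.03 to 4.72 and a median of 1.74. In early SHRSP rats it held for 1 of 5: animal 374 had a ratio of 6.36, animal 383 of 0.915 and animal 386 of 0.0410. Animal 377 had 142 CPM in neurons against 0.618 CPM in vessels. Animal 380 had 131 CPM in neurons and no vessel count, so its neurons were at least 129-fold higher against that limit of 3 counts.

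**Figure D2:**
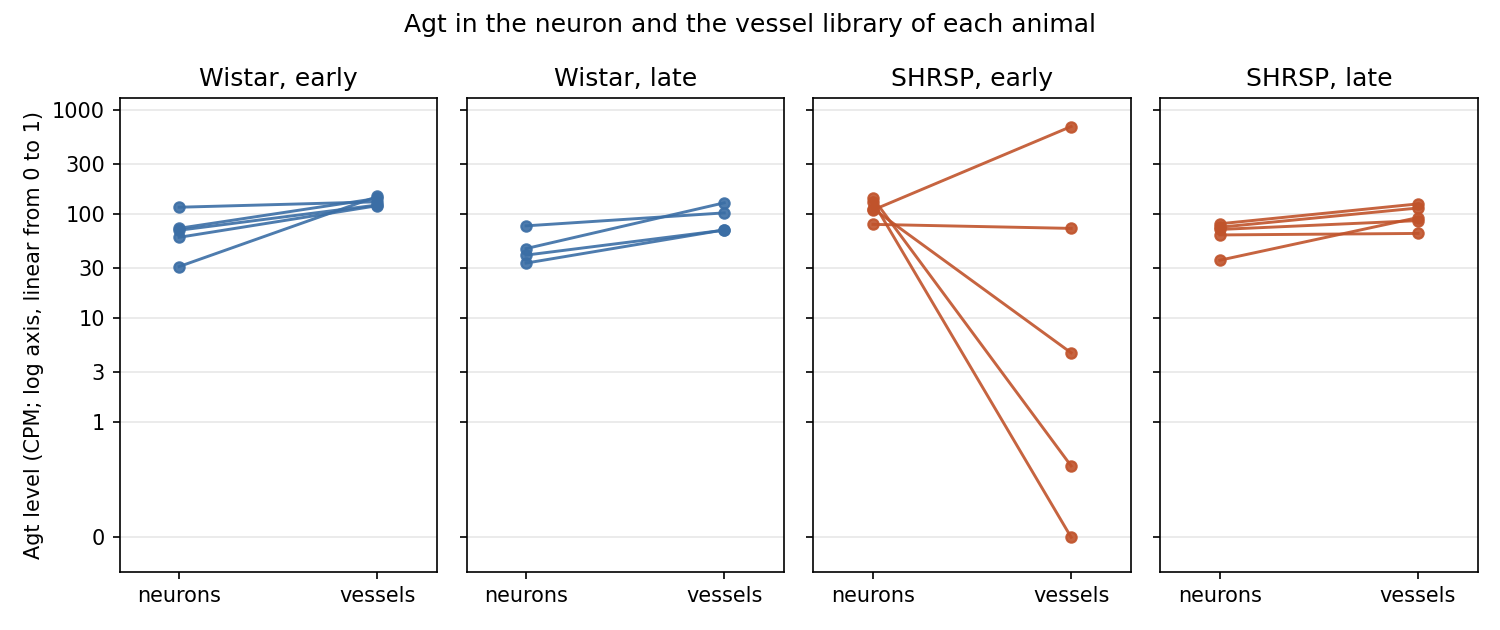
Agt level in CPM (log axis, linear from 0 to 1) in the neuron and the vessel library of each animal, joined by a line, in the 4 groups of strain and stage. The lines of all 14 animals outside early SHRSP rise towards vessels, while 4 of the 5 early SHRSP lines fall.

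These pairs come from bulk material, in which fewer cells of a type and less RNA per cell cannot be told apart. In the fit with the animal as a block, Agt was 15.6-fold lower in the vessels than in the neurons of early SHRSP rats (log2 fold -3.96, SE 1.5, adjusted p = 0.0291). This was the only one of the comparisons in which Agt was called, and 39.1% of the 12117 IDs were called there. The median log2 fold of all these IDs was -3.71, and 46.3% of IDs had a lower fold than Agt. Agt thus lay near the middle of the folds of all IDs tested, which were not matched to it in level. Over the 5 pairs the exact permutation test gave p = 0.188 (two-sided; 5 pairs cannot give less than 0.0625).

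The call rested on single animals and on the model. It was lost without animal 377 (log2 fold -2.35, adjusted p = 0.167), 380 (-2.15, adjusted p = 0.238) or 386 (-3.12, adjusted p = 0.161). DESeq2 kept it (-3.53, adjusted p = 1.0e-04), with 6802 of 12117 IDs called. It was lost in limma voom (-2.20, adjusted p = 0.0824) and with DESeq2-type scaling (-3.48, adjusted p = 0.0565), and without the block the log2 fold was 0.42 (SE 0.81, adjusted p = 0.749). In the low-share animals alone it was -5.43 (SE 2.36, adjusted p = 0.0714).

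In the other groups the fitted log2 fold of vessels over neurons was 1.03 in early Wistar (SE 0.89, adjusted p = 0.490), 0.93 in late Wistar (SE 0.98, adjusted p = 1) and 0.59 in late SHRSP rats (SE 0.87, adjusted p = 0.978). None passed, beside 0.677%, 0.371% and 0.883% of IDs called. With a term for the library set, the fit gave folds midway between the sets, where no late animal lies. These were -0.24 in late Wistar (adjusted p = 0.975) and -0.59 in late SHRSP rats (adjusted p = 0.836). All late animals are high-share, so the set effect applied to them came from early animals only. In the fit without that term, relative to the median ID, which was at -1.65, -0.36 and -0.46, Agt stood on the vessel side, above 94.9%, 85.4% and 82.4% of IDs. The sign held in every pair, which reaches the smallest p possible with 5 pairs in early Wistar and late SHRSP rats (exact permutation test, two-sided, p = 0.0625, adjusted p = 0.149 over 7 tests between materials) and with 4 pairs in late Wistar rats (p = 0.125).

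Averaged over the 4 groups the log2 fold was -0.35 (SE 0.53, adjusted p = 0.571), with 50.5% of IDs called. Its sign was not stable: it was 0.07 in limma voom, 0.71 without the block and 0.62 in the high-share animals, and did not pass in any of these.

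The difference between materials was itself compared between groups. Its change from Wistar to SHRSP was -2.67 on the log2 scale (SE 1.09, unadjusted p = 0.0139, adjusted p = 0.711 in edgeR). It was -0.42 without the block and -0.68 in the high-share animals, of which 1 of each strain was early. There 0% of IDs were called by edgeR, with 686 at an unadjusted p under 0.05, against 324 calls in DESeq2 and 1 in limma voom. Its change from early to late stage was 2.23 (SE 1.08, adjusted p = 0.185), near the median of 1.98 over all IDs, with 0.0413% called. It was 0.068 without the block, 0.35 with a term for the library set and 0.29 in the high-share animals.

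After the values had been seen, the change with strain was also taken at each stage. It was -4.99 in early rats (SE 1.75, adjusted p = 0.223 in edgeR, with 0.140% of IDs called; exact permutation test, two-sided, p = 0.103). DESeq2 called it (log2 -4.78, adjusted p = 9.6e-04), with 1718 of 12117 IDs called. So did edgeR without animal 383 (-6.38, adjusted p = 0.0325), with 302 of 11957 IDs called. It was -3.21 in limma voom (adjusted p = 0.339) and -0.50 without the block (adjusted p = 0.894). In the high-share set, with 1 early animal of each strain, it was -1.05. In late rats it was -0.35 (SE 1.3, adjusted p = 1). There 0% of IDs were called by edgeR and 113 had an unadjusted p under 0.05, with 4 calls in DESeq2 and 0 in limma voom.

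**Figure D3:**
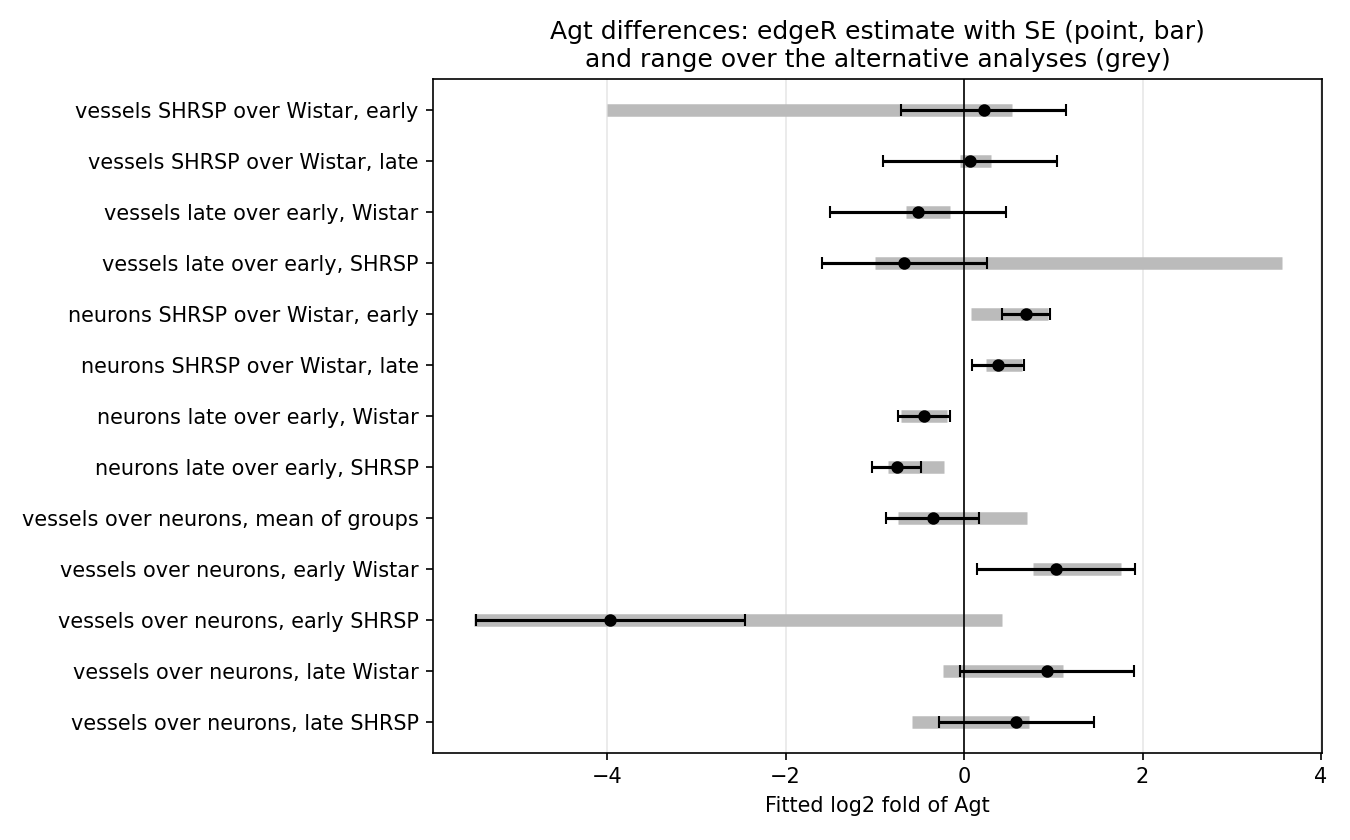
Fitted log2 fold of Agt in the comparisons of strains, stages and materials: points and black bars are the edgeR estimate with its SE, grey bars the range over the alternative analyses. The 4 neuron comparisons shown keep their sign across their grey bars, while early SHRSP vessels over neurons runs from -5.50 to 0.42 and early SHRSP over Wistar vessels from -4.00 to 0.54.

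Vessel libraries with few IDs included the 3 in which Agt was almost missing and others with ample Agt. The early SHRSP animals 377, 380 and 386 had 4104, 5745 and 6549 IDs with a count in vessels. No other vessel library had as few IDs as that of animal 377, whose total of 1612966 counts was also the lowest among vessels. Animal 374, with the highest Agt level, had 6088. The early Wistar animals 346, 343 and 368 had 5833, 6453 and 6543 IDs and 130, 122 and 147 CPM of Agt. The part of library quality in the low values was not tested.

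**Figure D4:**
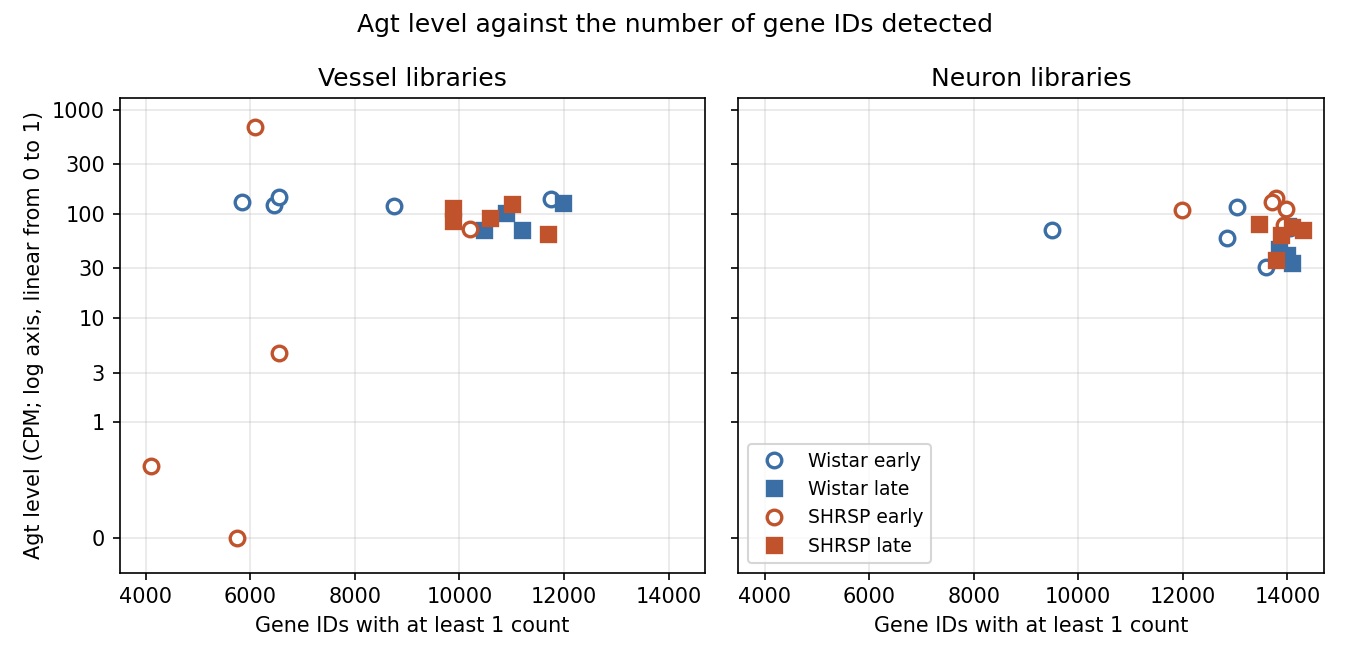
Agt level in CPM (log axis, linear from 0 to 1) against the number of gene IDs with at least 1 count, for vessel and neuron libraries. Colour marks the strain, open circles early and filled squares late animals. Among vessel libraries with 5745 to 6549 IDs, Agt ranges from 0 to 691 CPM.

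Of the 1238 IDs whose vessel median was at or above that of Agt, 26 (2.10%) had no count in the vessel library of animal 380, as Agt did. In that of animal 377, where Agt had its single count, 90 (7.27%) had none. IDs with at least 100 CPM in all 5 early Wistar vessel libraries were counted as a description, with the level chosen after the values of Agt had been seen. Of these 572 IDs, 60 (10.5%) had at most 1 count in at least 1 early SHRSP vessel library, and 4 (0.699%), Agt among them, in at least 2. Because the level was chosen with Agt known, its place among the 4 is no test. In the reverse direction, 385 IDs had at least 100 CPM in all 5 early SHRSP vessel libraries. Of these, 4 (1.04%) had at most 1 count in at least 1 early Wistar vessel library, and 0 in at least 2.

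In neurons the spread of Agt was near that of the median ID. Its biological coefficient of variation in the fit was 0.300 against a median of 0.342, with 40.2% of IDs lower. In vessels it was 1.02 against 1.68, with 10.6% lower. The fit across materials gives both the same spread, 0.843 for Agt, which lies closer to that of vessels.

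IDs with a pattern like that of Agt were sought by Pearson's r of log2 CPM, among IDs that averaged 5 or more on that scale. In the 19 vessel libraries the closest of 2460 IDs were ENSRNOG00000011709 (r = 0.963) and ENSRNOG00000026745 (r = 0.960), where the median r was 0.203. Picked for their high r in these libraries, both were by selection low where Agt was low. ENSRNOG00000011709 had 1.24, 0.675 and 1.32 CPM in the early SHRSP animals 377, 380 and 386, and 464 CPM in animal 374. ENSRNOG00000026745 had 0.618, 0.675 and 25.0 CPM in the same 3 animals and 354 CPM in animal 374. Over all 38 libraries ENSRNOG00000026745 was again among the closest (r = 0.909), after ENSRNOG00000024186 (r = 0.918).

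The most opposed IDs in vessels were ENSRNOG00000002660 (r = -0.796) and ENSRNOG00000021919 (r = -0.766), and over all 38 libraries ENSRNOG00000002122 (r = -0.695) and ENSRNOG00000009536 (r = -0.688). ENSRNOG00000002660 had 630 CPM in the vessels of animal 377 and 52.8 CPM in those of animal 374. In the 19 neuron libraries, where Agt spans a narrower range, the closest of 4050 IDs were ENSRNOG00000006237 (r = 0.896) and ENSRNOG00000010834 (r = 0.871). The most opposed were ENSRNOG00000021269 (r = -0.857) and ENSRNOG00000032922 (r = -0.856). The 2 closest IDs of vessels were not those of neurons, and the libraries share strain, stage and depth differences that enter every r.

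In the RefSeq gene models of the rat assembly GRCr8, the spans of 2 genes overlap that of Agt: Cog2, which encodes a subunit of a Golgi complex, and Capn9, a calpain protease. The sources used here do not give the strand setting or annotation used for counting, so reads in a shared stretch cannot be assigned with certainty.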

How the data were processed

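RNA had been extracted with the PicoPure kit and made into libraries with Lexogen's forward QuantSeq 3' kit, per the labels' protocols. The file the authors deposited gives raw counts, as whole numbers, for each Ensembl gene. Tools listed in the submitters' processing notes are STAR 2.5.3a and HTSeq 0.6.1, besides DESeq2 1.18.1 and FastQC 0.11.5. The sources used here do not give the build, annotation or strand setting. The reference table has no Ensembl IDs (0 matched), so the 11 gene lists for the renin-angiotensin system, serpins, transcription factors and cell types could not be applied.

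Groups and animal numbers follow the labels. edgeR 4.0.16 (R 4.3.3) was fitted to all IDs passing its filter on low counts, with TMM scaling and the robust quasi-likelihood F test: 19 libraries per material with 4 groups, and 38 libraries with the animal as a block and 1 vessel term per group. The block rests on the animal number in the titles. Within the 19 pairs, the 2 libraries' departures from their group means had correlations of -0.231 to 0.407, 5 of them over 0.1. P-values were adjusted by Benjamini-Hochberg over all IDs tested, and those printed as 1 round to it. A standard error (SE) is the log2 fold divided by the root of F. Exact two-sided permutation tests used log2(CPM + 1) in SciPy 1.17.1. Alternatives were DESeq2 1.42.0, limma voom 3.58.1, DESeq2-type scaling, no filter, the most abundant ID left out, library sets, fewer groups, no block and each animal left out. Fits were tested on simulated data. Among 72 pairs of libraries within groups, the smallest chi-square per degree of freedom was 4.88. None of these pairs thus differed by counting error alone, as the same library sequenced again would. Pairs across groups were not compared, and a second library of the same tissue could go unseen. The 5 closest IDs would have been named with symbols, and the 2 highest and 2 lowest without. The gene, lists and tests were chosen with earlier results of these data known. Within a material, libraries come from separately numbered animals, so p-values there cover animals, cutting and library making together. Between materials, the block takes out the level of each animal.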

Additional observations from a re-analysis of the deposited data

Results flagged for a closer look

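The highest library of early SHRSP vessels, that of animal 374 at 691 CPM, stood apart from the others of its group: its gap to the next library took 0.895 of the group's whole range, above Dixon's critical value of 0.710 for 5 samples. For normally distributed values chance flags about 1 in 20 groups, and 1 of the 8 groups was flagged. Whether CPM follow that distribution was not tested. The neuron library of the same animal, at 109 CPM, lay inside the range of its group.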

How the results depend on the processing

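Of 562 alternative values, 520 kept direction and side of the threshold, 8 lost a call, 5 gained one and 29 changed sign. The signs of the strain and stage differences of Agt in neurons held throughout. The low-share animals allow early comparisons only, and DESeq2 gave 6 vessel comparisons no adjusted p. Counts of 0, 1 and 14 limit the precision of 3 early SHRSP vessel libraries. Except where a value or fewer samples shows it, the cause of a change was not tested.

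Vessels over neurons in early SHRSP rats was -3.48 with DESeq2-type scaling and -2.20 in limma voom. It was -0.050 in the 1 high-share animal, -5.43 in low-share animals and -3.28 with the library set as a term. Without the replicate block, which pairs the libraries of an animal, it was 0.42, and the mean of groups was 0.71. That mean was 0.072 in limma voom and 0.62 in high-share animals, and with a pseudocount of 5 CPM, chosen after seeing the data, its difference turned positive (permutation p = 0.960). With the set as a term, the folds midway between the sets were -0.24 in late Wistar and -0.59 in late SHRSP rats. All late animals are high-share. The change with strain in early rats was -4.78 in DESeq2.

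In vessels, limma voom gave -4.00 for the early strain difference, -1.95 for its mean over stages, 4.10 for its change with stage and 3.56 for the SHRSP stage difference. High-share animals, of which 1 of each strain was early, gave -0.96, -0.45, 1.02 and 0.41 for the same 4. DESeq2-type scaling gave 0.033 for the change with stage. In neurons the change with stage was 0.31 in high-share animals, and the SHRSP stage difference was -0.75 with only the 2 groups.

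Leaving out single animals moved the mean of groups from -0.74 to 0.11, early SHRSP vessels over neurons from -5.50 to -2.15 and the early change with strain from -6.52 to -3.22. In vessels the early strain difference ran from -2.75 to 0.54, the late one from -0.047 to 0.30 and their mean from -1.35 to 0.30. The change with stage ran from -0.48 to 2.82 and the SHRSP stage difference from -0.99 to 2.30, the extremes of -2.75, -1.35, 2.82 and 2.30 being those without animal 374. In neurons the SHRSP stage difference ran from -0.85 to -0.62. The mean of groups was positive without animal 377 (0.050) or 380 (0.11). The vessel change with stage was also positive without 340 (0.0098), 343 (0.0054), 354 (0.052) or 384 (0.090). The late vessel strain difference was negative without 353 (-0.014), 381 (-0.047) or 382 (-0.012).

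The number of called IDs also moved by over 1.5 times in some comparisons. DESeq2 called 481 IDs for the early vessel strain difference and 1718 for the early change with strain, against 28 and 17 in edgeR. Without animal 383 edgeR called 1137 and 302 IDs for these, 1310 instead of 1 for the SHRSP stage difference in vessels, and 1358 instead of 5 for the change of vessels over neurons with stage. Without animal 349, 908 IDs instead of 82 were called between vessels and neurons of early Wistar rats. Over single animals left out, the stage differences in neurons had 180 to 1951 calls in SHRSP and 197 to 1847 in Wistar rats. For the SHRSP stage difference in neurons, high-share animals gave 4 calls and the set as a term 0, against 959.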
